A study of Mus musculus with 9 samples.

Results

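The aryl hydrocarbon receptor (AHR) pathway was followed in the mouse heart through 7 genes of the 22851 in the count matrix: Ahr, Arnt, Ahrr, Tiparp, Cyp1a1, Cyp1b1 and Nqo1. They were taken by gene symbol, and all 7 passed the low-count filter in every comparison. Cyp1a1 was picked because of its strong rise in diabetic hearts, so its values against CK are a description without a test. The question for the other 6 was whether they followed it.

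RNA was sequenced from 9 libraries of male C57BL/6 mice (C57BL/6J in the study's methods) that were 6 to 8 weeks old at the start, with 3 libraries in each group. CK mice received citrate buffer. DCM mice received a single intraperitoneal injection of streptozotocin, a toxin of pancreatic beta cells, and were kept as a diabetic cardiomyopathy model for 12 weeks. SPM mice received the same toxin together with the polyamine spermine, at 1 mg/kg daily for 2 weeks beforehand and every other day during the 12 weeks. No group received spermine without streptozotocin, so SPM carries the diabetes as well as the drug. The study's methods state in one place that 3 mice per group were sequenced and in another that 18 hearts were mixed in lots of 6, so p-values measure the spread between libraries, which may be pools.

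AHR is a transcription factor that waits in the cytosol, held by chaperones, until it binds a ligand such as a dioxin, an indole or a kynurenine derived from tryptophan. It then enters the nucleus, pairs with ARNT, and binds a short core sequence near genes of drug metabolism, of which Cyp1a1 is the classical readout. Ahrr and Tiparp are also induced by the receptor and restrain it in turn. In the heart, Cyp1a1 is known chiefly from endothelium and Cyp1b1 from stromal and vascular cells. In whole tissue, fewer cells of a type and less RNA per cell cannot be told apart.

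Total counts lay between 29901300 and 39718680 per library. The tissue label names the heart, while the extraction protocol speaks of retinas. Cardiomyocyte markers summed to 35130 to 48300 normalized CPM (the usual unit of counts scaled to equal, TMM-normalized library sizes) and retina markers to 15.5 to 21.8, nearly all of it Rom1, with the retinal factor Crx at 0 in CK and SPM. In SPM replicate 2, the counts of 69.2% of 11959 genes lay between those of SPM replicates 1 and 3, against 14.2% to 41.1% when each of the other 8 libraries was set between the remaining pair of its group. Modelled as a mix that took 44.5% from replicate 1 and the rest from replicate 3, it deviated by 0.879 of the counting noise (median of the squared deviation). The others had 2.72 to 7.30, except CK replicate 1, for which no value was obtained. In SPM replicate 2, all 7 AHR pathway genes lay between the neighbours. Whether SPM replicate 2 is a sample of its own was not tested, so DEGs that rest on it are also given without it. CK replicate 2 held 1105 counts of Scgb1a1 and 538 of Sftpc, both airway and alveolar genes, which were at 0 in the other CK libraries.

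All 7 genes are protein coding. In GENCODE M21 (GRCm38), Ahr lies on the minus strand of chromosome 12 from 35497974 to 35535038, Ahrr on that of chromosome 13 from 74211118 to 74292331, Cyp1b1 on that of chromosome 17 from 79701537 to 79715061 and Nqo1 on that of chromosome 8 from 107388225 to 107403206. Arnt lies on the plus strand of chromosome 3 from 95434388 to 95497240, Tiparp also on chromosome 3 from 65528410 to 65555518 and Cyp1a1 on the plus strand of chromosome 9, between 57687928 and 57703824.

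The stretch of 250 bases before the RefSeq start (GRCm38.p6) is shown for the 2 oxidases, for Ahrr and for Nqo1, the genes with the larger fitted differences between DCM and CK (log2 of 0.53 or more). The capitals mark the core of the dioxin response element, GCGTG, on either strand (CACGC when it lies on the other strand). RefSeq sequence was at hand for 6 of the 7 genes, all but Ahr.
Cyp1a1 (chr9:57697363-57697612, plus strand): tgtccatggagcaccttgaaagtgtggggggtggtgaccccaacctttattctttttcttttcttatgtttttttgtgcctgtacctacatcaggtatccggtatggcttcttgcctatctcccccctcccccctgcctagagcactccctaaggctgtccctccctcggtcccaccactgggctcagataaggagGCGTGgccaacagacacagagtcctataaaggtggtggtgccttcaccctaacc
Cyp1b1 (chr17:79715062-79715311, minus strand): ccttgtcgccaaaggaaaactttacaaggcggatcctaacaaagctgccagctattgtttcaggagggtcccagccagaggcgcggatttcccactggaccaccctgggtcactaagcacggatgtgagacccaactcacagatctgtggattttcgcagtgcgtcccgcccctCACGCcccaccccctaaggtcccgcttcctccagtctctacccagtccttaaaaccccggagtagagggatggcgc
Ahrr (chr13:74292332-74292581, minus strand): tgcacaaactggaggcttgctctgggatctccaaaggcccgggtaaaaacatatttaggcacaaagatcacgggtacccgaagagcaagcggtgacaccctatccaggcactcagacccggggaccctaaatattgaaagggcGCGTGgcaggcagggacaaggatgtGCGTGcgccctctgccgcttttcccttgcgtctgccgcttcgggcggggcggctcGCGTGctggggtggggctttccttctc
Nqo1 (chr8:107403206-107403455, minus strand): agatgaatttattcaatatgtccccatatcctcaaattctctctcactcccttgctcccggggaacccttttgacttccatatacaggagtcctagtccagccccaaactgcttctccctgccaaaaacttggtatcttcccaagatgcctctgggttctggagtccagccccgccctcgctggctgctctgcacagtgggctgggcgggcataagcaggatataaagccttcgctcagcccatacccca

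The core stood once before Cyp1a1, with its first base 54 bases before the start, and once before Cyp1b1 at 76 bases. Ahrr carried it 3 times, at 107, 82 and 27 bases. Tiparp and Arnt each had 1 match, at 170 and 29 bases, and Nqo1 had none. Across all 32851 promoter windows of that length, 28.2% held at least 1 match. The core of the antioxidant response element, TGACNNNGC on either strand, was in 10.2% of the windows, among them that of Arnt with 2 matches and no other of the 6. The 2 motifs share no base in these windows. The Cyp1a1 window lies before the usual first exon, and GENCODE also lists a longer transcript that starts upstream of it. A match in these letters is no binding site.

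In the CK heart the 7 genes spanned a wide range of expression. On the FPKM scale, which corrects for gene length, Nqo1 (the quinone reductase) stood highest at 34.1 ± 2.66 (SD, n = 3), followed by Arnt, the dimer partner, at 15.4 ± 0.243. Cyp1b1 (2.90 ± 0.379), Tiparp (2.35 ± 0.372) and Ahr itself (2.28 ± 0.167) came next, and each overlapped its neighbour in this order. Cyp1a1 (1.25 ± 0.453) and Ahrr (1.00 ± 0.145) were lowest and overlapped as well. In DCM, Cyp1a1 moved up to rank 3 at 9.55 ± 1.18 FPKM, below Arnt at 15.6 and above Cyp1b1 at 5.82, with no overlap on either side. In SPM it reached 22.9 ± 12.3 FPKM, a range that overlapped that of Arnt. Ahrr stayed lowest in DCM and SPM, at 1.36 and 1.58 FPKM.

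**Figure D1:**
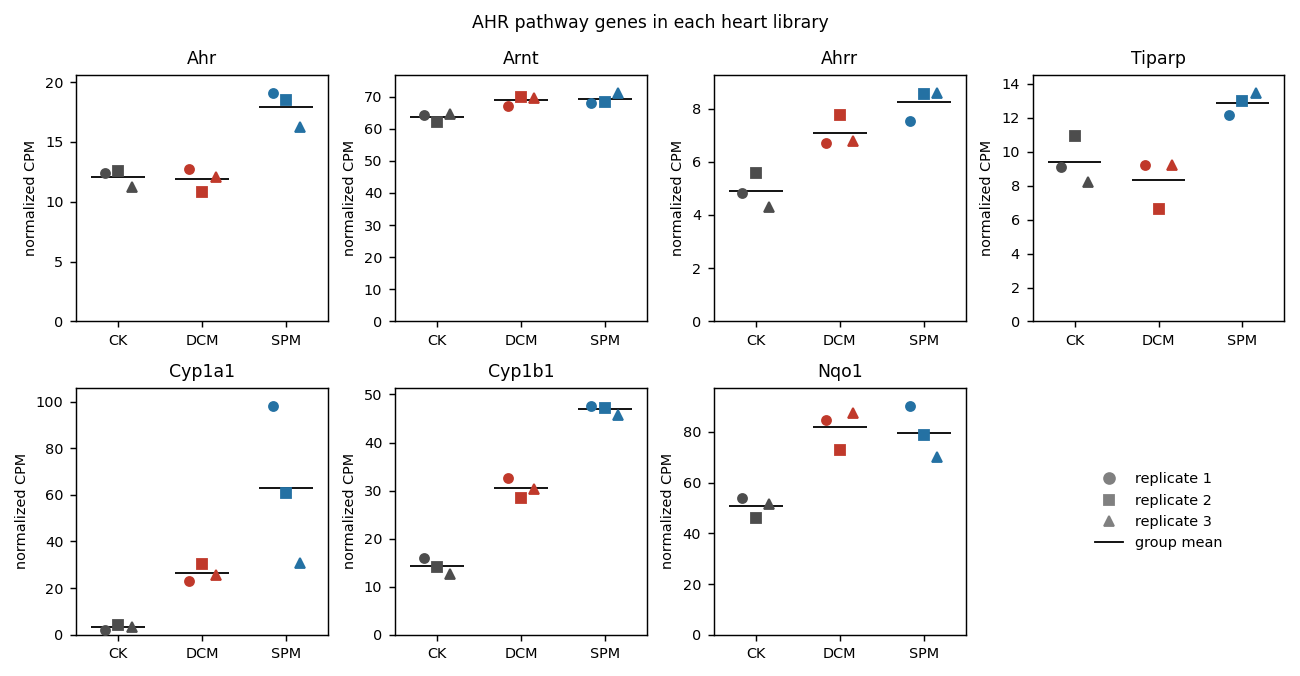
Normalized CPM (y axis, from 0, a scale of its own in each panel) of the 7 genes in the CK, DCM and SPM libraries. Points are single libraries, symbols give the replicate number and the black line is the group mean. Cyp1a1 spreads from 30.6 to 98.0 CPM in SPM, whereas Cyp1b1 sits between 45.8 and 47.6 there.

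DCM compared to CK asks what 12 weeks of streptozotocin diabetes did to the pathway. Cyp1a1, the xenobiotic monooxygenase that serves as readout of the receptor, had 1.98, 4.27 and 3.41 CPM in the CK libraries and 23.0, 30.3 and 25.7 CPM in the DCM libraries. All 3 DCM libraries were far above all 3 CK libraries. The fitted difference was 3.02 on the log2 scale (standard error 0.21), 8.11-fold. The highest of the CK values was in replicate 2, the library with airway transcripts, and the log2 difference without it was 3.29. Which part those transcripts have in its value was not tested.

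Cyp1b1, the related oxidase of estrogens and polycyclic hydrocarbons, followed in the same direction at a smaller size. It had 16.0, 14.0 and 12.6 CPM in CK and 32.6, 28.4 and 30.4 CPM in DCM. The groups were clearly apart, and the rise was 2.14-fold (log2 1.10, standard error 0.11, adjusted p = 6.68e-05, quasi-likelihood test of edgeR, adjusted by Benjamini-Hochberg over all genes tested, as for every adjusted p given here). Nqo1 had 54.1, 46.1 and 51.7 CPM in CK and 84.9, 73.1 and 87.7 CPM in DCM. It rose 1.62-fold (log2 0.69, standard error 0.09, adjusted p = 4.53e-04), again without overlap. Nqo1 is a target of the antioxidant factor NRF2 as well as of AHR.

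The genes that restrain the receptor did not pass the test. Ahrr had 4.81, 5.58 and 4.29 CPM in CK and 6.71, 7.76 and 6.78 CPM in DCM. Its groups did not overlap, but the log2 difference of 0.53 (standard error 0.16) missed the threshold at adjusted p = 0.0581. Tiparp, a mono-ADP-ribosyltransferase that marks the receptor for degradation, had 9.08, 10.9 and 8.21 CPM in CK and 9.23, 6.61 and 9.21 CPM in DCM. Its log2 difference was -0.17 (95% interval -0.49 to 0.15, adjusted p = 0.572), so a moderate change either way stays within the error.

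The receptor pair itself showed no detectable difference. Ahr had 12.4, 12.6 and 11.2 CPM in CK and 12.7, 10.8 and 12.0 CPM in DCM, which overlapped throughout (log2 difference -0.03, 95% interval -0.25 to 0.20, adjusted p = 0.921). Arnt lay between 62.1 and 64.7 CPM in CK and between 67.0 and 70.0 CPM in DCM. Its libraries did not overlap, yet the log2 difference was 0.11 (95% interval -0.02 to 0.24, adjusted p = 0.354).

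To count as a DEG, a gene needed an adjusted p under 0.05 along with a change of 1.5-fold or more. Cyp1b1 and Nqo1 were thus the 2 DEGs among the 6 genes other than Cyp1a1, both upregulated, whereas 4.34% of all 14402 genes tested were DEGs and 2.03% were upregulated. Of these 6, Cyp1b1, Nqo1, Ahrr and Arnt had every DCM library above every CK library, which 14.6% of all genes did. Both DEGs remained in each of the 6 fits that left out 1 library, with log2 changes of 1.02 to 1.19 for Cyp1b1 and 0.63 to 0.77 for Nqo1. Summed fibroblast markers (8 of 8 measured genes above 1 CPM) were lower in DCM, at 1403 to 1504 CPM against 2067 to 2169 in CK. Of the 3 most abundant, Col3a1 (mean 170 against 496 CPM) and Col1a2 (176 against 308) were lower, while Dcn (775 against 795) overlapped. Endothelial markers (10 of 10) overlapped at 2437 to 2689 against 2517 to 2894. Macrophage markers (9 of 9) were lower in DCM as well, at 576 to 688 CPM against 713 to 943 in CK. The part of these cell types in the 7 genes was not tested.

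**Figure D2:**
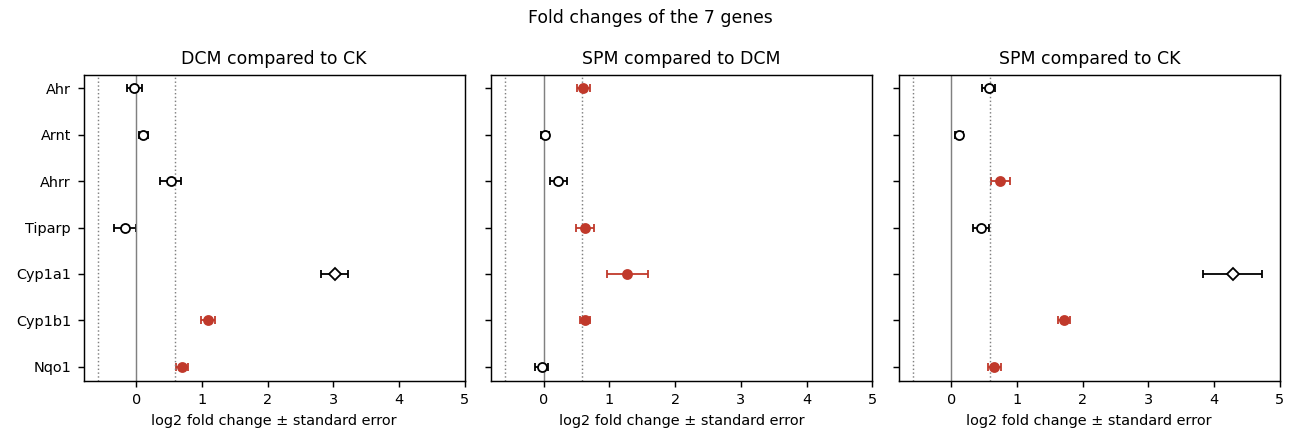
Log2 fold change with its standard error (x axis) of the 7 genes in the 3 comparisons. Red points are DEGs, open points are not, open diamonds mark Cyp1a1 in the comparisons with CK, which have no test, and dotted lines mark the 1.5-fold limit. Cyp1b1 and Nqo1 are red in DCM compared to CK and Ahr, Tiparp, Cyp1a1 and Cyp1b1 in SPM compared to DCM.

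SPM compared to DCM asks how hearts differed when spermine was given before and during the diabetes. Spermine began before streptozotocin, so a change in the heart and a change in the diabetes itself cannot be told apart. Ahr, Tiparp, Cyp1a1 and Cyp1b1 were higher in SPM and counted as DEGs, 4 of 7, where 3.59% of all 14493 genes tested were DEGs and 2.70% were upregulated. Cyp1a1 and Cyp1b1, which were higher in DCM than in CK, were higher again in SPM. The number of DEGs among the 7 was 1 without SPM replicate 2, 0 without DCM replicate 2 and 3 or 4 without any other library. All 3 SPM libraries were above all 3 DCM libraries for these 4 genes, as for 19.8% of all genes. Over all genes tested the number of DEGs was 56 and 73 without these 2 libraries, against 521 with all 6. With an offset for GC content, 0 of the 7 were DEGs. The share of counts from mitochondrial genes was also higher in SPM (21.0% to 21.1%) than in DCM (15.5% to 18.9%) or CK (13.7% to 16.2%), and its part in these differences was not tested.

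Ahr had 19.1, 18.5 and 16.2 CPM in SPM, all above the DCM range of 10.8 to 12.7 CPM. The rise was 1.52-fold (log2 0.60, standard error 0.10, adjusted p = 0.0109), just past the fold limit. Without SPM replicate 2 the log2 difference was 0.58 (adjusted p = 0.0566), and without DCM replicate 2 it was 0.54 (adjusted p = 0.0531), both no longer a DEG. Without SPM replicate 1 it was 0.55 and fell short of the fold limit alone (adjusted p = 0.0152). The exons of Ahr overlap the antisense gene Gm48236, which had at most 5 counts in any library.

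Tiparp, which overlapped between DCM and CK, had 12.2, 13.0 and 13.5 CPM in SPM against 6.61 to 9.23 in DCM. It rose 1.54-fold (log2 0.63, standard error 0.13, adjusted p = 0.0173). The call was lost without SPM replicate 2 (log2 0.62, adjusted p = 0.0757) and without DCM replicate 2 (log2 0.49, adjusted p = 0.0537), the library with the lowest Tiparp. Its exons overlap the antisense gene 4931440P22Rik, with 9 to 52 counts per library against 195 to 414 for Tiparp, and no source states that counting used strand, so reads of the pair cannot be told apart.

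Cyp1b1 had 47.6, 47.3 and 45.8 CPM in SPM, a narrow group, against 28.4 to 32.6 in DCM. It rose 1.55-fold (log2 0.63, standard error 0.07, adjusted p = 0.00652). It was the single one of the 4 that was still a DEG without SPM replicate 2. Without DCM replicate 2 its log2 difference of 0.58 (adjusted p = 0.0398) fell just under the fold limit. Summed fibroblast markers were higher as well, at 1637 to 1728 CPM in SPM against 1403 to 1504 in DCM without overlap. Of the 3 most abundant, Dcn was higher (mean 989 against 775 CPM, no overlap). Col3a1 (175 against 170) and Col1a2 (163 against 176) overlapped between the groups. The part of fibroblasts in the rise of Cyp1b1 was not tested.

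Cyp1a1 had 98.0, 60.7 and 30.6 CPM in SPM, the widest group of all 7 genes. The lowest, replicate 3, was hardly above the highest DCM library at 30.3 CPM, so the groups did not overlap by a small margin. The rise was 2.42-fold (log2 1.27, standard error 0.32, adjusted p = 0.0265) in a test that shares its DCM libraries with the comparison the gene was picked on. It was no longer a DEG without SPM replicate 2 (log2 1.30, adjusted p = 0.0633) or without any single DCM library (log2 1.17 to 1.38, adjusted p = 0.0917 to 0.105). Without SPM replicate 1 it remained a DEG at a smaller size (log2 0.80), and without SPM replicate 3 the log2 difference was 1.60.

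Liver transcripts stood in the same order as Cyp1a1 across the SPM libraries. Replicate 2 lay between replicates 1 and 3 there for 69.2% of 11959 genes. The summed liver list (10 genes) was 391, 195 and 34.5 CPM in SPM replicates 1, 2 and 3, against 29.2 to 32.9 in DCM. Albumin (Alb) had 8041, 3517 and 9 counts in the same SPM libraries. Cyp1a2, the hepatic sister gene of Cyp1a1, had 64, 23 and 0 counts there, at most 6 in any DCM library and at most 5 in any CK library. Tdo2, the liver enzyme that makes the AHR ligand precursor kynurenine from tryptophan, had 113, 68 and 2 counts. SPM replicate 3, with no count of Cyp1a2 and liver genes near the DCM level, had 30.6 CPM of Cyp1a1. The part of liver RNA in the Cyp1a1 values of replicates 1 and 2 was not tested. In CK the liver sums were 16.0, 55.4 and 15.8 CPM, with the high value in replicate 2, and all 3 DCM sums were above the other 2. Most of the DCM sums was Ahsg, at 26.1 to 30.1 CPM against 9.75 to 12.6 in CK. Alb went the other way, at 0.264 to 0.353 CPM in DCM against 1.07 to 28.2 in CK. Apoa1 overlapped, at 0.088 to 0.102 CPM in DCM against 0.065 to 3.13 in CK. The part of liver RNA in the DCM values was not tested either.

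**Figure D3:**
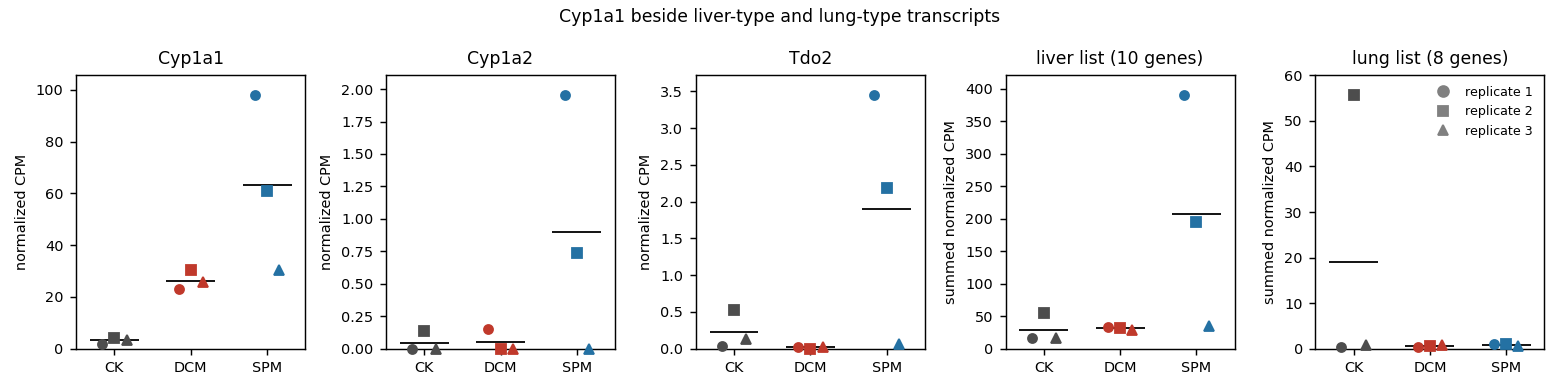
Normalized CPM of Cyp1a1, Cyp1a2 and Tdo2 and summed CPM of the liver and lung lists (y axes, from 0) in the CK, DCM and SPM libraries. Points are libraries, symbols are replicate numbers and black lines are group means. In SPM the order of replicates 1, 2 and 3 is the same for Cyp1a1, Cyp1a2, Tdo2 and the liver list, and the lung list is high in CK replicate 2 alone, at 55.7 CPM.

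The other 3 genes did not pass the test between SPM and DCM. Nqo1 had 90.2, 78.8 and 70.2 CPM in SPM, which spanned the DCM values of 73.1 to 87.7 CPM (log2 difference -0.03, 95% interval -0.23 to 0.17, adjusted p = 0.855). Arnt lay at 67.9 to 71.2 CPM (log2 difference 0.01, 95% interval -0.11 to 0.14, adjusted p = 0.899). Ahrr had 7.55, 8.54 and 8.59 CPM in SPM, overlapping DCM (log2 difference 0.22, 95% interval -0.02 to 0.46, adjusted p = 0.221). Without SPM replicate 2 the log2 differences of Nqo1, Arnt and Ahrr were -0.02, 0.02 and 0.20, none past the test. Macrophage markers (9 of 9) reached 1173, 880 and 689 CPM in SPM replicates 1, 2 and 3 against 576 to 688 in DCM, and their part in these differences was not tested.

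**Figure D4:**
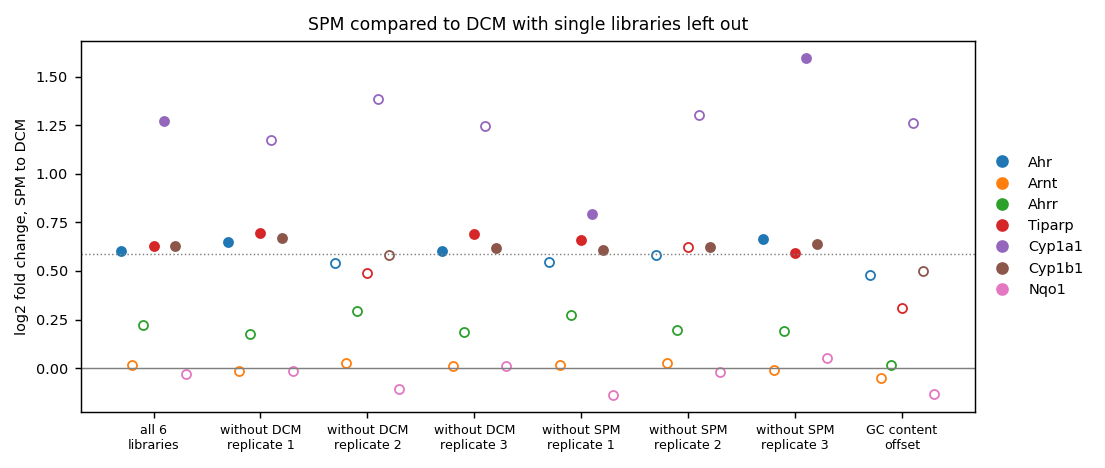
Log2 fold change in SPM compared to DCM (y axis) of the 7 genes with all 6 libraries, without each library in turn and with an offset for GC content (x axis). Filled points are DEGs in that fit, open points are not, and the dotted line is the 1.5-fold limit. The 4 genes stay above 0 in every fit, while none is filled without DCM replicate 2 or with the GC offset.

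SPM compared to CK gives the distance of the treated diabetic heart from the healthy one. It shares libraries with both other comparisons, so its values are set beside them and are no independent evidence. All 6 genes other than Cyp1a1 had every SPM library above every CK library, as did 22.8% of all 14574 genes tested. Of these 6, 3 were DEGs and all were upregulated, where 9.21% of all genes tested were DEGs and 5.08% were upregulated. Endothelial markers summed to 2225 to 2461 CPM in SPM, below 2517 to 2894 in CK and overlapping DCM. Cardiomyocyte markers were also lower in SPM, at 35130 to 40802 against 42266 to 47591 CPM in CK. Fibroblast markers were lower as well, at 1637 to 1728 against 2067 to 2169 CPM. Macrophage and smooth muscle sums overlapped. The part of these cell types in the 7 genes was not tested.

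Cyp1b1 rose 3.30-fold over CK (log2 1.72, standard error 0.09, adjusted p = 1.40e-04). Ahrr, which had missed the threshold in DCM, rose 1.68-fold (log2 0.75, standard error 0.14, adjusted p = 0.00675). Nqo1 rose 1.58-fold (log2 0.66, standard error 0.10, adjusted p = 0.00305), close to its size in DCM, and fell under the fold limit without SPM replicate 1 (log2 0.56). Ahr (log2 0.57, adjusted p = 0.00434) and Tiparp (log2 0.45, adjusted p = 0.0267) passed the adjusted p, as 27.4% of all genes did, but not the fold limit. Arnt was 0.12 higher on the log2 scale (adjusted p = 0.147). Cyp1a1 was 4.28 higher on the log2 scale, and 3.81 without SPM replicate 1.

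Without SPM replicate 2, Cyp1b1, Ahrr and Nqo1 were all DEGs in SPM compared to CK. With the GC content offset, Ahrr and Nqo1 (both log2 0.58) fell just under the fold limit. Ahr became a DEG without CK replicate 2 (log2 0.60) or without SPM replicate 3 (log2 0.64).

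Other genes known to be induced by AHR gave 0 DEGs by edgeR in each of the 3 comparisons. Of all genes tested, 4.34% (DCM to CK), 3.59% (SPM to DCM) and 9.21% (SPM to CK) were DEGs. With 10 genes tested, a count of 0 cannot be told from these shares. Of a list of 18, 14 were in the matrix given (Ugt1a1, Ugt1a6a, Ugt1a6b and Slc7a5 were not analysed here) and 10 passed the filter, and their median log2 differences were 0.11 in DCM compared to CK, -0.08 in SPM compared to DCM and 0.10 in SPM compared to CK, against -0.0025, 0.0057 and 0.0022 over all genes tested. In the first comparison they ranged from -0.20 (Hes1, a Notch effector) to 0.86 (Gsta1, a glutathione transferase, adjusted p = 0.237). Nfe2l2, which encodes NRF2, lay between 64.8 and 82.1 CPM in CK, between 76.7 and 87.7 in DCM and between 75.6 and 83.2 in SPM, with overlap throughout. Aldh3a1, another classical target, had 54 to 100 counts in every library, and its group ranges overlapped. Without the fold limit, 3 of the 10 were higher in SPM compared to CK, among them the fatty acid transporter Cd36 (log2 0.49, adjusted p = 0.00126), and Hes1 was lower (log2 -0.34, adjusted p = 0.0439). No gene of the list passed the adjusted p in the other 2 comparisons, where 10.4% (DCM to CK) and 16.6% (SPM to DCM) of all genes did. At an unadjusted p under 0.05 in edgeR the numbers were 1, 5 and 4 of 10 in DCM to CK, SPM to DCM and SPM to CK, where 24.6%, 34.6% and 40.9% of all genes had one, and DESeq2 counted 0 DEGs among them in each.

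The machinery around the receptor was read next. Of all genes tested, 4.34%, 3.59% and 9.21% were DEGs in DCM to CK, SPM to DCM and SPM to CK. Lists this small cannot tell a count of 0 or 1 from these shares. Of the chaperone complex, 4 of 5 genes were measured, and the kinase Src was the one DEG, lower in SPM compared to CK (log2 -0.61, standard error 0.13, adjusted p = 0.0111), as were 4.12% of all genes tested. It was no DEG without SPM replicate 2 (log2 -0.62, adjusted p = 0.0512). In SPM compared to DCM, the chaperones Hsp90aa1 (1.43-fold, adjusted p = 0.00956) and Ptges3 (1.32-fold, adjusted p = 0.0122) were higher under the fold limit. Src was lower there (log2 -0.55, adjusted p = 0.0438), also under the fold limit, where 16.6% of all genes passed the adjusted p. Hsp90ab1, at a mean of 1547 CPM in SPM and 1641 in DCM, did not pass the test (log2 -0.08, adjusted p = 0.498). Without SPM replicate 2 the adjusted p values of Hsp90aa1, Ptges3 and Src were 0.0520, 0.0721 and 0.136. Among 10 coactivators and corepressors there were 0 DEGs in each comparison by edgeR or DESeq2. At an unadjusted p under 0.05 in edgeR there were 1, 3 and 5 in DCM to CK, SPM to DCM and SPM to CK. The shares over all genes were 24.6%, 34.6% and 40.9%. The log2 differences of the 10 stayed between -0.23 and 0.51. Of the enzymes that make or use tryptophan ligands, edgeR tested 5, 5 and 6 in DCM to CK, SPM to DCM and SPM to CK. Tdo2 was a DEG by DESeq2 in SPM compared to DCM, where the edgeR filter removed it. By edgeR it did not pass the adjusted p in SPM compared to CK (log2 2.98, adjusted p = 0.0780). The one edgeR DEG was Kmo, which removes kynurenine by hydroxylation. Kmo had 2.58, 2.62 and 1.85 CPM in CK, 1.19, 0.339 and 0.968 in DCM and 1.47, 0.546 and 0.358 in SPM. It fell in both groups compared to CK (log2 -1.48, adjusted p = 0.0362, in DCM, where 2.31% of all genes were downregulated DEGs, and log2 -1.56, adjusted p = 0.0390, in SPM), on counts of 10 to 94 per library. Without SPM replicate 2 the latter was log2 -1.35 (adjusted p = 0.143). The part of the macrophage markers, which were also lower in DCM than in CK, was not tested.

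ARNT also serves the hypoxia-inducible factors (HIF). Hif3a, a HIF subunit that pairs with ARNT, had 2.77, 1.81 and 3.41 CPM in CK, 9.16, 9.02 and 11.2 in DCM and 14.1, 11.6 and 9.79 in SPM. It rose 3.68-fold in DCM (log2 1.88, standard error 0.21, adjusted p = 1.89e-04) and stood 4.46-fold above CK in SPM (log2 2.16, adjusted p = 0.00102, and log2 2.17 with adjusted p = 0.00480 without SPM replicate 2). Of 10 HIF target genes tested in DCM compared to CK, 1 rose, the mitophagy receptor Bnip3 (log2 0.87, adjusted p = 1.10e-04). Another 1 fell, the collagen prolyl hydroxylase P4ha1 (log2 -0.59, adjusted p = 0.00653), at the fold limit and no DEG by DESeq2. Of all genes tested, 2.03% were upregulated and 2.31% downregulated DEGs. With no fold limit 5 were higher and 1 was lower (10.4% of all genes passed either way), and 7 of the 10 log2 differences were above 0, with a median of 0.28. In SPM compared to DCM, 0 of 10 were DEGs, and with no fold limit 2 were higher and 2 lower (16.6% of all genes passed either way). Bnip3 was among the lower (log2 -0.42, adjusted p = 0.0413, and 0.131 without SPM replicate 2). The glycolytic regulator Pfkfb3 rose in SPM compared to CK (log2 1.07, adjusted p = 0.00126, and log2 1.10 with adjusted p = 0.00662 without SPM replicate 2).

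NRF2 targets were read because Nqo1 belongs to them as well. In DCM compared to CK, 0 of 10 tested were DEGs by edgeR or DESeq2. Of these 10, 8 had an unadjusted p under 0.05 (24.6% of all genes) and 3 passed the adjusted p without the fold limit (10.4% of all genes), all higher, with a median log2 difference of 0.26 over the list against 0.69 for Nqo1. In SPM compared to DCM, where Nqo1 did not pass the test, 2 of 11 fell, as did 0.890% of all genes tested, and 0 rose. These were Gclm, the modifier subunit of glutathione synthesis (log2 -1.10, standard error 0.13, adjusted p = 0.00652), and the sulfiredoxin Srxn1 (log2 -0.59, standard error 0.10, adjusted p = 0.0112). Without the fold limit, 2 were lower and 1 was higher, Prdx1 (log2 0.29, adjusted p = 0.0190, and 0.101 without SPM replicate 2). Of all genes, 16.6% passed that limit in either direction. At an unadjusted p under 0.05 in edgeR there were 5 of 11, against 34.6% of all genes. Of the 11 log2 differences 5 were above 0 and 6 below, with a median of -0.0019. Gclm had 11.9, 16.0 and 15.3 CPM in DCM and 6.66, 6.39 and 6.90 in SPM, below the CK range of 9.74 to 11.9 (log2 -0.74 compared to CK, adjusted p = 0.00324). Without SPM replicate 2, Gclm remained a DEG in both comparisons with SPM (log2 -1.08, adjusted p = 0.0224, against DCM and log2 -0.70, adjusted p = 0.0240, against CK), and Srxn1 did not (log2 -0.57, adjusted p = 0.0566).

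**Figure D5:**
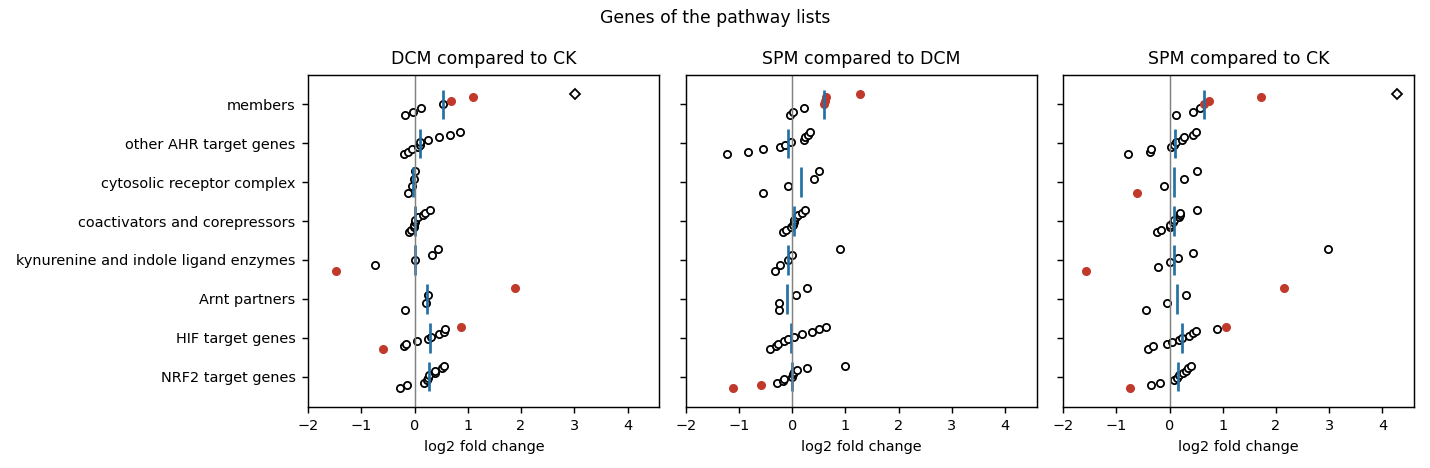
Log2 fold change (x axis) of each tested gene of the 7 AHR pathway genes ("members") and of 7 lists around them, in the 3 comparisons. Red points are DEGs, open points are not, open diamonds are Cyp1a1 in the comparisons with CK, and blue bars are list medians. The other AHR target genes (10 tested in each comparison) hold no red point, where 4.34%, 3.59% and 9.21% of all genes were DEGs. Hif3a is the red point at 1.88 and 2.16 among the ARNT partners.

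The pattern of each gene over the 9 libraries was compared with those of Cyp1a1, Cyp1b1 and Nqo1. Nearness was the root mean square difference of log2 CPM, each gene centred on its own mean but not scaled, among 12610 genes with a mean of at least 1 CPM. Myh7, the slow myosin heavy chain, was nearest at 0.54, with 205 ± 72.6 CPM in CK, 1455 ± 400 in DCM and 3409 ± 1399 in SPM (SD, n = 3). Its SPM libraries had 4830, 3366 and 2033 CPM, the same order as Cyp1a1, and SPM replicate 2 lay between its neighbours for 69.2% of 11959 genes. In CK the order was the reverse, with Myh7 at 272, 128 and 215 CPM and Cyp1a1 at 1.98, 4.27 and 3.41 CPM. Dusp4 (a MAP kinase phosphatase), Per2 (a clock gene), S100a9 (a neutrophil alarmin) and Tent5b followed at 0.70 to 0.91. Because the measure is not scaled, it favours genes that vary as widely as Cyp1a1, whose root mean square about its own mean was 1.83 against 0.06 to 0.72 for the other 6 genes.

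The nearest gene to Cyp1b1 was Lyve1, a marker of lymphatic vessels and resident macrophages, at 0.16. Lyve1 had 18.8 ± 2.53, 35.2 ± 1.12 and 56.2 ± 3.46 CPM in CK, DCM and SPM. Lcn2, Gm10156, Pdzk1 and Gm13881 came next at 0.20 to 0.22. For Nqo1 the nearest were 1810010H24Rik, Slc43a3, Nmral1, Crnde and Smad9 at 0.07 to 0.10. All distances take in the group differences, so they describe likeness over these 9 libraries and nothing more.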

How the data were processed

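RNA from 9 heart libraries was read as deposited. The authors filtered reads with fastp 0.18.0. The submitters' processing notes name Bowtie 0.12.2 and the builds mm8 and mm9 without a role, and the aligner, counter, annotation and strand setting of these values were not stated in the labels or methods. The deposited counts are whole numbers per Ensembl gene, and the authors' FPKM values equal count divided by library total and one length per gene (largest relative deviation 6.8e-13). Of 22851 identifiers, 22820 matched a symbol in GENCODE M21 (GRCm38). Every deposited column was used, and the paper's supplementary lists were not.

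Groups followed the sample titles. Each pair of groups was fitted with edgeR 4.0.16 (R 4.3.3): filterByExpr, TMM, quasi-likelihood test and Benjamini-Hochberg adjustment over all genes tested. DEGs passed an adjusted p of 0.05 and a 1.5-fold change, the limits of the study, which used DESeq2. The standard error is the size of the log2 fold change divided by the root of its F, and intervals are 95% from it. CPM use the TMM-scaled library size, and log2 CPM in the likeness measure used a prior count of 2. Fits were tested on simulated data. DESeq2 1.42.0 and limma 3.58.1 (on log2 of the deposited FPKM plus 0.1 or 1, for genes of at least 0.5 FPKM in 3 libraries), other scalings and filters, an offset for GC content, a replicate block and each library left out were alternatives. Deviations from the group means correlated at -0.0745 to 0.205 between libraries of the same number and at -0.284 to 0.218 between others, so the numbers were not taken to pair the libraries.

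The 7 genes and all lists were chosen with earlier results of these data known. Named genes were the 7, Cyp1a2, up to 4 DEGs per list and comparison, the 3 most abundant genes of a marker list and the 5 genes most like a gene that was a DEG in at least 2 comparisons. Crx, Tdo2, Gsta1, Hes1, Nfe2l2, Aldh3a1, Cd36, Hsp90aa1, Hsp90ab1, Ptges3 and Prdx1 were named after their values were seen. In addition to the AHR targets left out, Afmid, Hif1a, Sim1, Adm, G6pdx, Actc1, Pln, Tcf21 and Rcvrn of these lists were not analysed here, and some list genes are not reported here.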

Additional observations from a re-analysis of the deposited data

How the results depend on the processing

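In DCM compared to CK, the number of DEGs among the 6 genes other than Cyp1a1 was 2 in 15 of 16 alternatives, each time Cyp1b1 and Nqo1, and 1 with limma on log2(FPKM + 1). In SPM compared to DCM, the number among the 7 was 4, and it was 2 with limma on log2(FPKM + 0.1), 0 with limma on log2(FPKM + 1), 0 with the GC content offset and 0 to 4 when 1 library was left out. Over all genes the 521 DEGs of that comparison became 326 and 159 by the limma fits, 134 with the GC content offset and 56 to 791 with 1 library left out, and the 1342 of SPM compared to CK became 694 with limma on log2(FPKM + 1) and 771 without SPM replicate 2. The cause was not tested. In SPM compared to CK, 3 of the 6 genes other than Cyp1a1 were DEGs. With limma on log2(FPKM + 1) or the GC content offset, Cyp1b1 alone of the 6 remained a DEG. Nqo1 was also lost with limma on log2(FPKM + 0.1) and without SPM replicate 1. Ahr was gained without CK replicate 2 or without SPM replicate 3. A larger pseudocount shrinks fold changes of genes with low FPKM by construction.

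The replicate block left 2, 4 and 3 DEGs in the 3 comparisons (Cyp1a1 counted in SPM compared to DCM alone) and changed no call of the 7 genes. Among the other AHR target genes the number was 0, and it was 1 in SPM compared to DCM without the low-count filter (Cyp1a2), 4 in SPM compared to CK without the fold limit, and 0 to 1 in either comparison with 1 library left out (Cyp1a2 higher without SPM replicate 3).

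Among the 7 genes, signs turned for Ahr, Arnt and Nqo1, whose differences were small there. For Ahr in DCM compared to CK the log2 difference was 0.011 with the GC content offset and -0.078 to 0.032 with 1 library left out. For Arnt in SPM compared to DCM it was -0.053 with the GC content offset and -0.014 to 0.026 with 1 left out, and for Nqo1 -0.138 to 0.049. Of the 4 DEGs in SPM compared to DCM, 3 lay within 0.05 of the fold limit on the log2 scale, at common biological coefficients of variation of 0.122, 0.110 and 0.124 in the 3 comparisons.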
